A study of Arabidopsis thaliana with 6 samples.

Results

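The Aux/IAA and ARF genes of Arabidopsis were followed across wild-type and mutant seedlings. They were taken as 29 Aux/IAA gene IDs and 15 ARF gene IDs (ARF1 to ARF11 and ARF16 to ARF19), which makes 44 of the 32548 genes in the deposited table. All 44 had a value and passed the filter on low values described with the processing. RNA came from whole 12-day-old seedlings of 3 genotypes, with 2 libraries each. The wild type was the accession Col-0. The hac1hac5 seedlings, labelled hac1-/-hac5-/-, are double mutants of HAC1 and HAC5, a pair of genes for CBP/p300-type histone acetyltransferases. The med8med25 seedlings, labelled med8-/-med25-/-, are double mutants of MED8 and MED25, genes for subunits of Mediator, a complex that connects transcription factors with RNA polymerase II. All seedlings grew untreated on MS medium at 22 °C in days of 16 h light and 8 h dark, and no auxin was added. The alleles, the number of seedlings per library and the separate growth of replicates are not given in the labels, so the p-values given here reflect the spread between these libraries alone, which may be technical.

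Aux/IAA proteins are short-lived nuclear repressors. They bind ARF proteins, the DNA-binding response factors of the auxin pathway, and bring the TOPLESS co-repressors to ARF target genes. Auxin joins a TIR1/AFB receptor to the degron of an Aux/IAA protein, which is then degraded and frees the ARF, and many Aux/IAA genes are themselves rapidly induced by auxin, so that the repressors form a feedback loop.

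Libraries held between 24.9 and 36.8 M reads, and the shallowest was the first med8med25 library. The SD of the log2 difference between the libraries of a genotype was 0.20 for Col-0, 0.24 for hac1hac5 and 0.32 for med8med25, over 19252 genes. In med8med25, MED8 was at 307 and 323 normalized counts against 847 and 855 in Col-0, and MED25 was at 254 and 302 against 1236 and 1227. In hac1hac5, HAC1 was at 2342 and 2875 against 3385 and 3529, and HAC5 at 801 and 1087 against 1233 and 1190.3, so transcripts of both targeted genes were still counted there. Counts per gene do not show which part of a transcript was read. Photosynthesis genes that mark leaf (6 of 6 tested) and genes that mark root (6 of 6 tested) had reads in all libraries. Of the leaf list, 2 were lower in hac1hac5 and 1 in med8med25, beside 21% and 14.3% of all genes tested. All 6 leaf genes had log2 differences below 0 in both mutants. Their medians were -0.54 and -0.36, beside -0.02 and 0.00 over all genes. Of the root list, 3 were lower in hac1hac5, and 2 were higher and 2 lower in med8med25, where 12.3% of all genes were higher. The root medians were -0.39 in hac1hac5, with all 6 below 0, and 0.14 in med8med25, with 2 below 0. In whole seedlings, fewer cells of a type and less RNA per cell cannot be told apart.

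The sequences upstream of a few members are shown because the genes with the steepest losses differ in them. They come from RefSeq TAIR10.1, cover the 250 bases before the annotated gene start, and are written 5′ to 3′ on the strand of the gene. Capitals mark TGTCTC, the canonical ARF-binding element, TGTCGG, a stronger ARF-binding variant, and CACGTG, the G-box bound by bHLH factors, each read on both strands.
IAA19 (chr3:5263751-5264000, plus strand): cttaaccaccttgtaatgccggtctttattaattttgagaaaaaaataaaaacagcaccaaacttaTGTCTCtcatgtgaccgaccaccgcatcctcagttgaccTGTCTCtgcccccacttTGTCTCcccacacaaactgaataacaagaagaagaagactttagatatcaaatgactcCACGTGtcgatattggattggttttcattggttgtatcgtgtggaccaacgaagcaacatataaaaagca
IAA29 (chr4:15583082-15583331, plus strand): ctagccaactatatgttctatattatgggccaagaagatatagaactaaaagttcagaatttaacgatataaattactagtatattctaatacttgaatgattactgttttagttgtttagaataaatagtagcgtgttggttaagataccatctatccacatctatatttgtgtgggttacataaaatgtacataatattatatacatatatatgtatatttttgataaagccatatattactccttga
IAA5 (chr1:5366498-5366747, minus strand): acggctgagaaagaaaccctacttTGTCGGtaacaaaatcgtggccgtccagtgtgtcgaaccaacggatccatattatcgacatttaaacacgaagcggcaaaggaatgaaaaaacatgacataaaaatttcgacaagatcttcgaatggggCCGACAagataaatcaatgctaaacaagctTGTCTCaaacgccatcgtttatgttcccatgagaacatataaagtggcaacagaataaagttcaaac
The IAA19 window held 3 TGTCTC elements and a G-box, the IAA5 window held 1 TGTCTC and 2 TGTCGG elements, and the IAA29 window held none of the 3 motifs.

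IAA6 and IAA19 shared the longest identical stretch among all 406 pairs of Aux/IAA upstream windows, 23 bases long. Continued in register over 48 bases, a length set by hand, 45 were identical (93.8%), and capitals mark those here. That share depends on where the block was ended.
IAA6 (chr1:19673786-19673833, minus strand): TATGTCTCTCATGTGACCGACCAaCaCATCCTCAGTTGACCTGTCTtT
IAA19 (chr3:5263815-5263862, plus strand): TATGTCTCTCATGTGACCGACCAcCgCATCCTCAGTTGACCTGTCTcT
The block starts 181 bases before the IAA6 gene and 186 before IAA19, and its first TGTCTC lies in the shared stretch. IAA20 and IAA30 followed with 18 shared bases, ctgtctcatcattccacc, which also hold that element.

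The degron of Aux/IAA proteins lies in domain II, and its core is a glycine, a tryptophan and a pair of prolines. Codons for these in a row, with any synonymous codon, were found in frame in 23 of the 29 Aux/IAA coding sequences, and in none of IAA20, IAA30, IAA31, IAA32, IAA33 and IAA34, which are known as non-canonical members. The core is in capitals in 3 canonical members that the results turn on.
IAA7 (chr3:8195571-8195594, plus strand): gtggtgGGATGGCCACCTgtgagg
IAA19 (chr3:5264310-5264333, plus strand): gtggtgGGGTGGCCACCGgtttgt
IAA29 (chr4:15583945-15583968, plus strand): gttgttGGATGGCCACCAgtaaaa

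Most repressor genes were lower in both mutants, and fewer of the response factors were. In hac1hac5 against Col-0, 20 of 29 Aux/IAA genes were lower at an adjusted p under 0.05 (limma, Benjamini-Hochberg over 23898 genes), 2 were higher and 7 were not called. Over all genes tested 21% were lower and 17.4% higher. The median log2 change of the Aux/IAA genes was -0.79, beside -0.02 over all genes, and 13 of them were lower by at least 1 on the log2 scale, which held for 5.53% of all genes. Of the 15 ARF genes, 3 were lower, 1 was higher and 11 were not called, with a median of -0.17.

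The med8med25 seedlings gave 17 lower Aux/IAA genes, 0 higher and 12 not called, with a median of -0.66 beside 0.00 over all genes. The background was 14.3% lower and 12.3% higher. A fall of at least 1 was found in 7 Aux/IAA genes and in 4.07% of all genes. Without the first Col-0 library the 17 became 11. Among the ARF genes 7 were lower, 2 higher and 6 not called, with a median of -0.20. Both comparisons use the same Col-0 libraries, so their likeness is not independent evidence, and the difference between the mutants was tested directly further on.

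Both hac1hac5 libraries were below both Col-0 libraries at 21 Aux/IAA and 8 ARF genes, which held for 39.2% of all genes. Both med8med25 libraries were below both Col-0 libraries at 22 Aux/IAA and 8 ARF genes, beside 33.2% of all genes. Both hac1hac5 libraries were above both Col-0 libraries at 4 Aux/IAA and 3 ARF genes, beside 34.2% of all genes, and both med8med25 libraries at 3 and 4, beside 31.7%. Against hac1hac5, both med8med25 libraries were higher at 14 Aux/IAA and 4 ARF genes, beside 35.2% of all genes. Both were lower at 5 Aux/IAA and 6 ARF genes, also beside 35.2% of all genes.

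**Figure D1:**
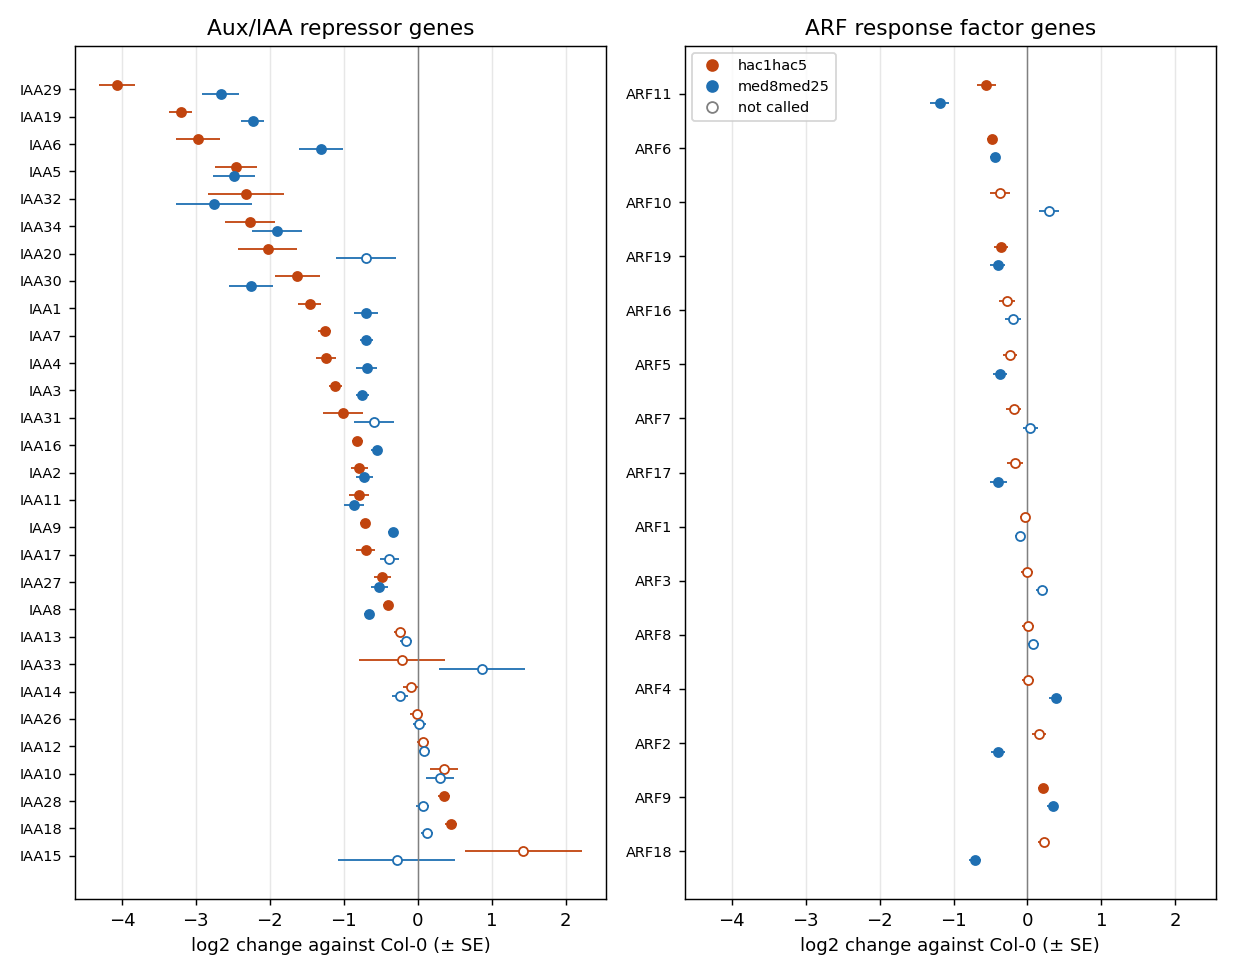
Log2 change of the 29 Aux/IAA genes (left) and 15 ARF genes (right) against Col-0, with bars of 1 standard error; filled points were called at an adjusted p under 0.05. Aux/IAA changes in hac1hac5 reach -4.06 at IAA29, whereas no ARF gene lies below -1.18.

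The summed level of the 29 Aux/IAA genes per kilobase of exon was 43960.4 and 43868 in Col-0. For hac1hac5 it was 21642 and 23425, and for med8med25 25502 and 27301. The 4 mutant libraries were thus below both wild-type libraries without overlap. The ARF sum was 9308 and 9438 in the wild type, 9168 and 9588 in the hac1hac5 libraries, and 8112 and 7921 in those of med8med25. The hac1hac5 libraries thus spanned the wild-type ones and the med8med25 libraries lay below them. The normalized counts of all genes summed to 35.0 and 35.5 M in Col-0, 30.6 and 31.6 M in hac1hac5, and 32.9 and 30.3 M in med8med25. That sum was thus also lower in every mutant library, and whether the ARF difference in med8med25 goes beyond it was not tested. The Aux/IAA sum exceeded the ARF sum 4.72-fold and 4.65-fold for Col-0, 2.36-fold and 2.44-fold for hac1hac5, and 3.14-fold and 3.45-fold for med8med25.

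**Figure D2:**
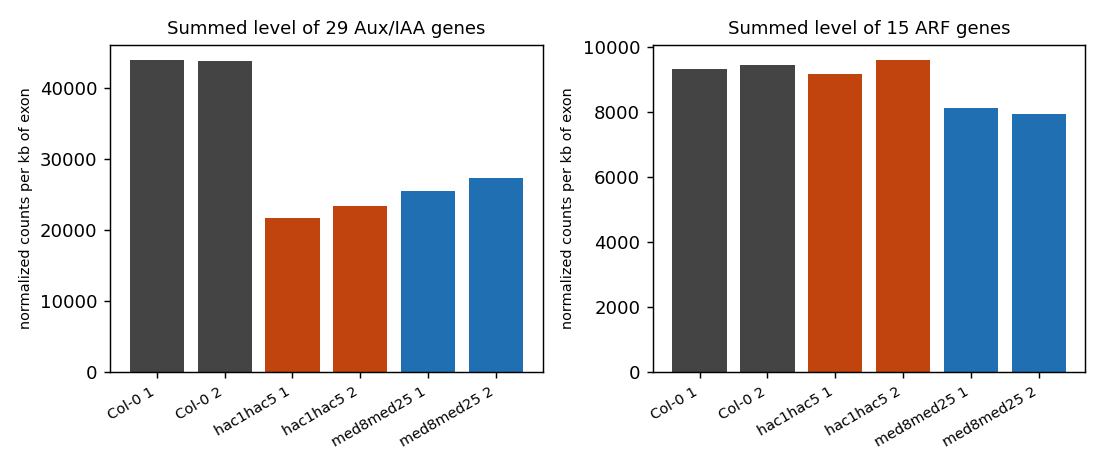
Summed level of the 29 Aux/IAA genes and of the 15 ARF genes in each library, in normalized counts per kilobase of exon. The Aux/IAA bars of all 4 mutant libraries stand at 27301 or less, below the 43868 of the lower Col-0 library, whereas the ARF bars stay between 7921 and 9588.

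IAA29 and IAA19 showed the steepest losses among abundant members. Both act in elongation and tropic growth of the seedling shoot and are also known as targets of the light-regulated factor PIF4. IAA29 (AT4G32280) gave 4622 and 5191 normalized counts in Col-0, with 252 and 339 for hac1hac5 and 576 and 1030.5 for med8med25. Every mutant library was far below every wild-type library, and the med8med25 libraries lay above those of hac1hac5. The log2 change was -4.06 ± 0.24 (SE, 2 libraries per genotype, limma adjusted p = 9.41e-06) in hac1hac5 and -2.67 ± 0.24 (limma adjusted p = 0.000198) in med8med25.

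IAA19 (AT3G15540), which encodes the MASSUGU2 repressor of ARF7-dependent growth, gave 2884 and 2751 normalized counts in Col-0. It was at 271 and 342 in hac1hac5 and at 514 and 695 in med8med25. The 3 genotypes formed separate steps, and IAA19 changed by -3.21 ± 0.15 in hac1hac5 (limma adjusted p = 3.38e-06) and by -2.23 ± 0.15 in med8med25 (limma adjusted p = 4.7e-05). Together, IAA19 and IAA29 made up 14.7% and 15.4% of the Aux/IAA sum per kilobase in the wild type. Their share was 2.15% and 2.57% for hac1hac5 and 3.76% and 5.46% for med8med25. The pair was named for its steep losses, so the direction of this change in share follows from the choice.

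IAA6 (AT1G52830), the SHY1 gene, and IAA5 are weaker members that also fell steeply in hac1hac5. In med8med25 the loss of IAA6 was smaller than those of IAA5, IAA19 and IAA29. The values of IAA6 and IAA5 follow. IAA6 gave 421 and 391 normalized counts in Col-0, against 37.4 and 69.7 for hac1hac5 and 132 and 203 for med8med25. Its log2 change was -2.97 ± 0.30 in hac1hac5 (limma adjusted p = 0.000133) and -1.30 ± 0.30 in med8med25 (limma adjusted p = 0.0139). The med8med25 call was lost without either Col-0 library and without the first med8med25 library, at adjusted p values of 0.0821, 0.0672 and 0.0511. IAA5 (AT1G15580) gave 532 and 454 normalized counts in the wild type, 73.5 and 107 in the hac1hac5 libraries, and 64.6 and 117 in those of med8med25. Here the mutants overlapped each other, with log2 changes of -2.46 ± 0.28 (limma adjusted p = 0.000284) and -2.49 ± 0.28 (limma adjusted p = 0.00058).

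**Figure D3:**
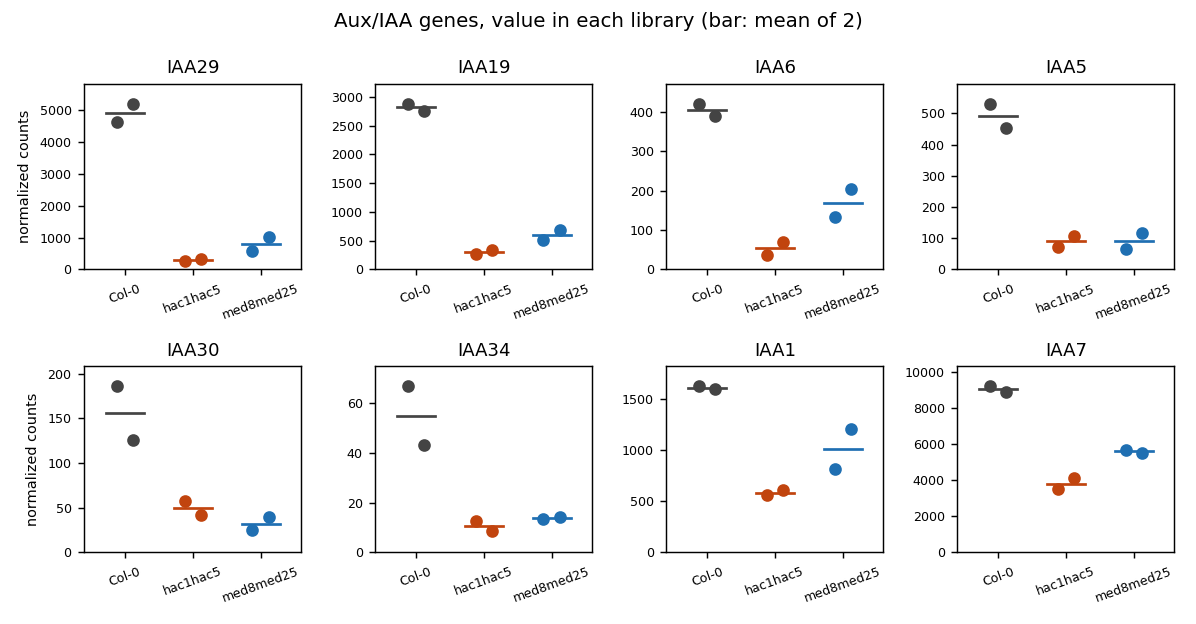
Normalized counts of 8 Aux/IAA genes in each library, with bars at the mean of the 2 libraries of a genotype and axes starting at 0. In every panel the 4 mutant libraries lie below both Col-0 libraries, and the mutants overlap each other in the IAA5 panel only.

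IAA1, IAA3, IAA4 and IAA7 are canonical repressors that are well expressed in seedlings. IAA7 (AXR2) gave 9197 and 8869 normalized counts in Col-0, with 3499 and 4087 for hac1hac5 and 5678 and 5489 for med8med25. It fell by 1.26 ± 0.09 on the log2 scale in hac1hac5 (limma adjusted p = 1.95e-05) and by 0.69 ± 0.09 in med8med25 (limma adjusted p = 0.00093), and the 3 genotypes did not overlap. IAA1 gave 1628 and 1601 normalized counts in Col-0, against 558 and 613 for hac1hac5 and 818 and 1205 for med8med25. Its log2 change was -1.46 ± 0.16 and -0.70 ± 0.16, and the smaller change, in med8med25, was not called without the first Col-0 library (adjusted p = 0.0759) or without the second (adjusted p = 0.0713).

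IAA4 gave 3189 and 3079 normalized counts in the wild type, 1422 and 1232 in the hac1hac5 libraries, and 1663 and 2257 in those of med8med25, with log2 changes of -1.24 ± 0.14 and -0.69 ± 0.14. The med8med25 call of IAA4 was lost without the first Col-0 library (adjusted p = 0.055). IAA3 (SHY2), known from root meristem size, gave 1512 and 1521 normalized counts in Col-0, with 665 and 737 for hac1hac5 and 845 and 962 for med8med25, with log2 changes of -1.11 ± 0.09 and -0.75 ± 0.09. For IAA3 and IAA4 too, neither mutant overlapped Col-0. Of the IAA3 exon bases, 39.6% also lie in the exons of a neighbouring gene, and it was not given in the sources used here whether the counting used strand.

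The 6 members without the degron codons are weakly expressed, and 5 of them were lower in hac1hac5 and 3 in med8med25. Among the 23 members with the codons, 15 and 14 were lower. The shares of all genes tested were 21% lower in hac1hac5 and 14.3% in med8med25. IAA30 gave 186 and 126 normalized counts in Col-0, against 57.2 and 41.8 for hac1hac5 and 24.7 and 39.6 for med8med25. All mutant libraries were below both wild-type ones, with log2 changes of -1.63 ± 0.30 (limma adjusted p = 0.00337) and -2.25 ± 0.30 (limma adjusted p = 0.00124). IAA34 gave 66.8 and 43.2 normalized counts in the wild type, 12.7 and 8.46 in the hac1hac5 libraries, and 13.3 and 14.1 in those of med8med25, which gave -2.26 ± 0.34 and -1.90 ± 0.34. Its med8med25 call was lost without the first Col-0 library (adjusted p = 0.0543).

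IAA32, which with IAA34 acts in the apical hook, gave 19.3 and 19.3 normalized counts in Col-0, with 2.68 and 3.46 for hac1hac5 and 3.75 and 0.901 for med8med25. The log2 changes were -2.33 ± 0.51 and -2.76 ± 0.51, on values of a few reads in every mutant library. The hac1hac5 call of IAA32 was lost without library 2 of Col-0 (adjusted p = 0.0524) or library 1 of hac1hac5 (adjusted p = 0.0523), and 44.2% of its exon bases lie in the exons of a neighbouring gene. IAA20 gave 12.5 and 19.2 normalized counts in Col-0, against 3.63 and 2.54 for hac1hac5 and 8.12 and 10.3 for med8med25. It fell by 2.03 ± 0.40 in hac1hac5 (limma adjusted p = 0.00464), a call lost without the second Col-0 library (adjusted p = 0.0523), and its difference of -0.70 ± 0.40 in med8med25 was not called.

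IAA31 gave 36.7 and 34.4 normalized counts in the wild type, 15.3 and 19.1 in the hac1hac5 libraries, and 24.9 and 21.5 in those of med8med25. The log2 difference was -1.02 ± 0.27 in hac1hac5 (limma adjusted p = 0.0182) and -0.60 ± 0.27 in med8med25, where it was not called. The hac1hac5 call was lost without either Col-0 library or library 1 of hac1hac5, at adjusted p values of 0.104, 0.0817 and 0.0891. IAA33, the last of the non-canonical genes, lay between 0.942 and 5.65 normalized counts in all libraries and was not called.

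The 5 most abundant repressors per kilobase were called lower in both mutants with changes under 1 on the log2 scale, apart from IAA7 in hac1hac5. IAA2 (AT3G23030) had the highest Col-0 level of the 44, at 6090 normalized counts per kilobase. Its normalized counts were 8155 and 8385 in Col-0, with 4386 and 5212 for hac1hac5 and 4548 and 5509.6 for med8med25. The mutants lay below Col-0 and overlapped each other, with log2 changes of -0.79 ± 0.11 (limma adjusted p = 0.000902) and -0.72 ± 0.11 (limma adjusted p = 0.0026). IAA16 changed by -0.82 and -0.56, IAA9 by -0.72 and -0.33, and IAA8 by -0.41 and -0.66, in hac1hac5 and med8med25. All of these were called, although the med8med25 call of IAA9 was lost without the first Col-0 library (adjusted p = 0.113) or without the second (adjusted p = 0.101). IAA2, IAA7, IAA8, IAA9 and IAA16 together made up 57.5% and 57.6% of the Aux/IAA sum in the wild type. Their share was 65.1% and 65.4% for hac1hac5 and 64.6% and 62.6% for med8med25. It is a share of the same sum as that of IAA19 and IAA29, so the changes in share are not independent.

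By Col-0 level, the middle band had the smallest median changes. The bands were cut on the Col-0 level, which is also the reference of each change, so the 2 are not independent. IAA19 and IAA29, in the top band by Col-0, were at 303 and 230 normalized counts per kilobase in hac1hac5. A link between level and change was not tested. Of the 11 genes at 1000 or more normalized counts per kilobase in Col-0, 11 were lower in hac1hac5 and 10 in med8med25, with median log2 changes of -1.11 and -0.69. Of the 11 between 100 and 1000, 5 were lower in each mutant, with a median of -0.24 in both. Among the 7 below 100, 4 were lower in hac1hac5 and 2 in med8med25, with medians of -1.02 and -0.60. Beside these bands, 21% and 14.3% of all genes were lower. IAA11 changed by -0.79 and -0.86. IAA27 changed by -0.48 and -0.52, and its hac1hac5 call was lost without the first Col-0 library or either hac1hac5 library, its med8med25 call without either Col-0 library, at adjusted p values from 0.0514 to 0.118. IAA17 (AXR3) was called in hac1hac5 alone, at -0.70, and its -0.38 in med8med25 had a limma adjusted p of 0.0612; the difference of 0.32 between the mutants was not called either (limma adjusted p = 0.0822).

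**Figure D4:**
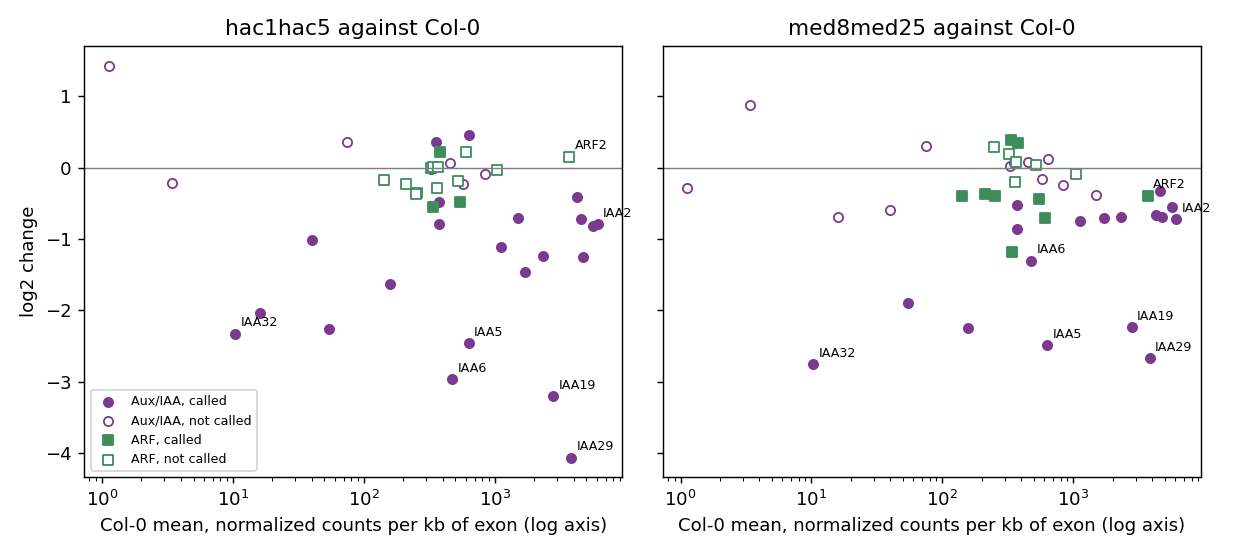
Log2 change against Col-0 of each Aux/IAA gene (circles) and ARF gene (squares) by its mean Col-0 level in normalized counts per kilobase of exon, on a log axis; filled symbols were called. The Col-0 level is also the reference of the change, so the axes are not independent. In hac1hac5 all 11 Aux/IAA genes at 1000 or more per kilobase are filled and below 0. ARF2, at 3699 per kilobase, lies just above 0 and was not called.

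The exceptions among the repressors were IAA18 and IAA28, which rose in hac1hac5 by 0.45 and 0.35 on the log2 scale. Both act in lateral root formation, and IAA18 also in the embryo. In med8med25 their differences were 0.12 and 0.07, not called. The IAA28 call was lost without either Col-0 library or library 1 of hac1hac5, at adjusted p values of 0.0698, 0.102 and 0.0696. The 7 genes that were called in neither mutant were IAA10, IAA12, IAA13, IAA14, IAA15, IAA26 and IAA33. They include IAA12 (BODENLOS), the partner of ARF5 in the embryo, at 0.07 and 0.08, and IAA14 (SOLITARY-ROOT), a repressor of lateral root initiation, at -0.09 and -0.24. IAA15 lay between 0.0175 and 7.07 normalized counts, too few to show a difference at this depth.

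Tested directly against each other, med8med25 was higher than hac1hac5 in 10 Aux/IAA genes (IAA1, IAA3, IAA4, IAA6, IAA7, IAA9, IAA16, IAA19, IAA20 and IAA29) and lower in 3 (IAA8, IAA18 and IAA28). Over all genes 20.9% were higher and 20.5% lower. The largest of these differences were 1.66 ± 0.30 on the log2 scale at IAA6 (limma adjusted p = 0.0028), 1.40 ± 0.24 at IAA29 (limma adjusted p = 0.00254) and 1.33 ± 0.40 at IAA20 (limma adjusted p = 0.0285). Of these calls, 5 of the 10 higher (IAA6, IAA7, IAA9, IAA19 and IAA29) and 0 of the 3 lower held under every setting tried. Without library 1 of hac1hac5 the 10 became 6, as IAA1, IAA3, IAA16 and IAA20 were not called (adjusted p values from 0.0505 to 0.107). IAA4 was not called without library 2 of hac1hac5 (adjusted p = 0.0973), and IAA16 not without either Col-0 library (adjusted p = 0.0752 and 0.0744). The 3 lower became 0 without library 2 of hac1hac5, where IAA8, IAA18 and IAA28 had adjusted p values of 0.0618, 0.0766 and 0.0558, and 1 without either Col-0 library, where IAA8 and IAA28 were lost. The IAA20 difference was not called in any fit that left out a mutant library, with adjusted p values from 0.0505 to 0.123. IAA19 differed by 0.97 ± 0.15 (limma adjusted p = 0.00157). No difference was called between the mutants at IAA2, IAA5, IAA11, IAA27, IAA30, IAA32 and IAA34, where both mutants were called lower than Col-0.

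Of the ARF genes, ARF5, ARF6, ARF7, ARF8 and ARF19 encode activators. ARF6 (AT1G30330), which with ARF8 promotes hypocotyl growth and flower maturation and is the most abundant activator per kilobase, gave 2189 and 2252 normalized counts in Col-0, against 1601 and 1572 for hac1hac5 and 1687 and 1599.8 for med8med25. It was the member of this class with the clearest loss, by 0.48 ± 0.07 (limma adjusted p = 0.000804) and by 0.43 ± 0.07 (limma adjusted p = 0.00261) on the log2 scale. ARF19, a partner of ARF7 in lateral root formation, was at 1128 and 1057 in the wild type, 816 and 895 in the hac1hac5 libraries, and 765 and 889 in those of med8med25. Its changes of -0.35 ± 0.10 and -0.40 ± 0.10 were called, and lost without the first Col-0 library (adjusted p = 0.147 and 0.135), without the second (adjusted p = 0.0733 and 0.0755), and in hac1hac5 without its first library (adjusted p = 0.123).

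ARF5 (MONOPTEROS), the activator of embryo and vein patterning, gave 729 and 796 normalized counts in Col-0, with 665 and 628 for hac1hac5 and 559 and 621 for med8med25. The mutants lay below Col-0, at -0.24 ± 0.09 (not called) and -0.37 ± 0.09 (limma adjusted p = 0.0208). The med8med25 call of ARF5 was lost without either Col-0 library and without the first med8med25 library, at adjusted p values of 0.0724, 0.181 and 0.0595. ARF7 was at 2277 and 2328 in Col-0, against 1878 and 2180.0 for hac1hac5 and 2564 and 2179 for med8med25, at -0.19 ± 0.10 and 0.04 ± 0.10. ARF8 was at 1343 and 1285 in the wild type, 1371 and 1269.7 in the hac1hac5 libraries, and 1337 and 1436 in those of med8med25, at 0.01 ± 0.08 and 0.08 ± 0.08. Neither ARF7 nor ARF8 was called. At ARF7 both hac1hac5 libraries lay below both Col-0 libraries while med8med25 overlapped them, and ARF8 overlapped Col-0 in both mutants.

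Among the 7 ARF genes of the repressor class, 1 was lower and 1 higher in hac1hac5, and 3 were lower and 2 higher in med8med25. The shares of all genes were 21% lower and 17.4% higher in hac1hac5, and 14.3% and 12.3% in med8med25. ARF11 (AT2G46530) gave 1031 and 811 normalized counts in Col-0, with 577 and 669 for hac1hac5 and 393 and 411 for med8med25. These steps did not overlap, and the changes were -0.56 ± 0.13 (limma adjusted p = 0.00943) and -1.18 ± 0.13 (limma adjusted p = 0.00045). The hac1hac5 call of ARF11 was lost without library 1 of Col-0 (adjusted p = 0.0899) or of hac1hac5 (adjusted p = 0.0767). Tested against hac1hac5, ARF11 was lower in med8med25, at a log2 difference of -0.63 ± 0.13 (limma adjusted p = 0.00529).

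ARF2 (AT5G62000), known as a repressor that limits seed and organ size, is the most abundant ARF, at 3699 normalized counts per kilobase in Col-0. Its normalized counts were 14134 and 14497 in Col-0, against 15292 and 16536 for hac1hac5 and 11599 and 10224 for med8med25. Both med8med25 libraries were the lowest and both hac1hac5 libraries the highest. The log2 difference from Col-0 was 0.15 ± 0.09 in hac1hac5, not called, and -0.39 ± 0.09 in med8med25 (limma adjusted p = 0.0158), which was no longer called without the first Col-0 library (adjusted p = 0.114) or without the second (adjusted p = 0.145). Between the mutants ARF2 differed by -0.55 ± 0.09 (limma adjusted p = 0.00221).

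ARF18 followed the same order, with 1567 and 1575 normalized counts in the wild type, 1734 and 1923 in the hac1hac5 libraries, and 999.9 and 929 in those of med8med25. The med8med25 change was -0.70 ± 0.08 (limma adjusted p = 0.000572), the hac1hac5 difference of 0.22 ± 0.08 was not called, and the mutants differed by -0.92 ± 0.08 (limma adjusted p = 8.24e-05). ARF9 was higher in both mutants, by 0.21 and 0.34 on the log2 scale, and ARF4, a leaf polarity gene regulated by tasiRNA, was higher in med8med25 by 0.38. The ARF9 and ARF4 calls were lost without either Col-0 library, at adjusted p values from 0.0860 to 0.202, and in hac1hac5 the ARF9 call was lost without either hac1hac5 library as well, at 0.0682 and 0.161. ARF1 and ARF3 were called in neither mutant.

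ARF10, ARF16 and ARF17 are targets of the microRNA miR160. ARF16, the most abundant of the 3 per kilobase, gave 884 and 926 normalized counts in Col-0, with 749 and 739.6 for hac1hac5 and 704 and 884 for med8med25, and was called in neither. ARF17 was lower in med8med25 by 0.40 on the log2 scale, a change not called without either Col-0 library, either hac1hac5 library or the first med8med25 library, with adjusted p values from 0.0551 to 0.207. ARF10 was not called against Col-0, at -0.37 and 0.29, and was higher in med8med25 than in hac1hac5 by 0.66 (limma adjusted p = 0.00521).

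**Figure D5:**
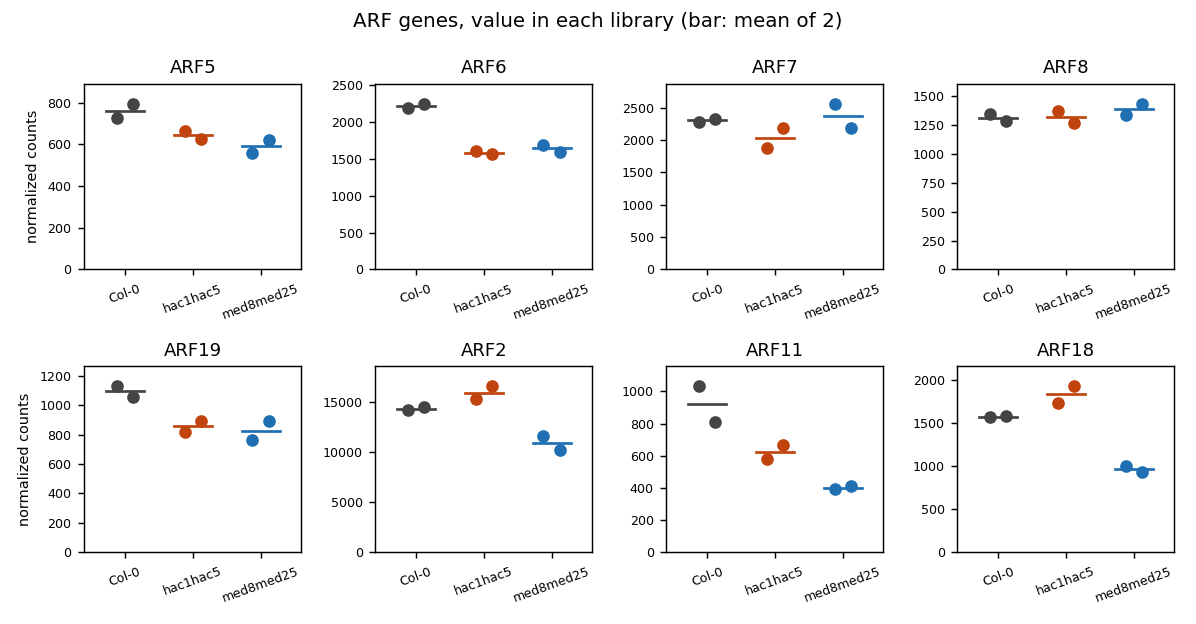
Normalized counts of 8 ARF genes in each library, with bars at the mean of the 2 libraries of a genotype and axes starting at 0. Both mutants lie below Col-0 at ARF5, ARF6, ARF11 and ARF19, med8med25 overlaps the other genotypes at ARF7 and all 3 mix at ARF8, and at ARF2 and ARF18 med8med25 lies below and hac1hac5 above Col-0.

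Single libraries decided several ARF counts. The 3 lower ARF genes in hac1hac5 became 1 without library 1 of Col-0 or of hac1hac5, and 6 without either med8med25 library. The 7 lower ARF genes in med8med25 became 3 without either Col-0 library. ARF6 in both mutants, and ARF11 and ARF18 in med8med25, kept their calls under every setting tried. Of the lower Aux/IAA genes, 16 of 20 in hac1hac5 and 11 of 17 in med8med25 kept theirs. The second med8med25 library was above the first in 12 of the 17 Aux/IAA genes lower there, with a median log2 difference of 0.27. Over all genes tested it was above in 12170 of 23898, with a median of 0.01. At the same 17 genes, the second hac1hac5 library was above the first in 13, with a median of 0.14. In Col-0 it was above in 4, with a median of -0.05.

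The scale of the values bears on the ARF counts as well. Dividing each library by its total in place of the authors' scaling moved the median of all genes to 0.16 in hac1hac5 and 0.15 in med8med25. The Aux/IAA counts were then 19 lower and 2 higher in hac1hac5, and 16 and 1 in med8med25. Those of the ARF genes became 1 lower and 3 higher in hac1hac5, and 4 and 3 in med8med25, so the balance of ARF directions in hac1hac5 turned. The calls lost were those of ARF11, ARF19 and IAA27 in hac1hac5 (adjusted p = 0.0592, 0.279 and 0.0736) and of ARF5, ARF17, ARF19 and IAA9 in med8med25 (adjusted p = 0.203, 0.230, 0.147 and 0.0765). Those gained were ARF2 and ARF18 in hac1hac5 and ARF3 and IAA18 in med8med25, all of them higher than Col-0. Limma voom on the deposited values lost and gained the same calls against Col-0, and lost IAA31 in hac1hac5 as well (adjusted p = 0.0539).

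The upstream motifs were counted over all members and all genes. TGTCTC occurred within 250 bases upstream of 9 of 29 Aux/IAA genes (IAA1, IAA5, IAA6, IAA8, IAA19, IAA20, IAA30, IAA32 and IAA34), of 1 of 15 ARF genes, and of 10.8% of 22592 genes. All 9 were lower in hac1hac5, 8 of them by at least 1 on the log2 scale, and 8 were lower in med8med25. In med8med25, 6 of the 9 were lower by at least 1. Of the 20 Aux/IAA genes without the element, 11 were lower in hac1hac5 and 9 in med8med25, with 5 and 1 lower by at least 1. Over all genes, 22.1% of those with TGTCTC and 21.8% of those without it were lower in hac1hac5, and 14.4% and 14.8% in med8med25. Lower by at least 1 were 6.49% of all genes with it and 5.50% of those without it in hac1hac5. In med8med25 these shares were 4.02% and 4.03%. TGTCGG was found at 6 Aux/IAA genes, 2 ARF genes and 4.48% of all genes, and CACGTG at 4, 0 and 7.24%. IAA29, the member that changed most in hac1hac5, has no match in its 250 bases, shown above, and 1 TGTCGG within 1000 bases. In med8med25 the member that changed most was IAA32, at -2.76 beside -2.67 for IAA29, on few reads. The IAA32 window holds a TGTCTC. Among the 9 windows with the element, those of IAA32 and IAA34 overlap exons of a neighbouring gene. Whether the element lies within those exons was not examined. A match is a description of letters and not of a binding site.

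In the genome, 3 pairs of Aux/IAA genes lie head to head with no protein-coding gene between them. IAA3 and IAA17, 6388 bases apart on chromosome 1, were both lower in hac1hac5. So were IAA2 and IAA7, 12510 bases apart on chromosome 3. IAA14 and IAA1, 10732 bases apart on chromosome 4, had log2 differences of -0.09 (not called) and -1.46 in hac1hac5, and the difference between them was not tested.

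The other parts of the auxin pathway were counted for comparison. Beside these lists, 21% of all genes were lower and 17.4% higher in hac1hac5, and 14.3% and 12.3% in med8med25. Of the 6 TIR1/AFB receptor genes, 1 was higher and 2 lower in hac1hac5, and 1 was lower in med8med25. The strongest change was that of AFB1, at -1.10 in hac1hac5. None of the 3 SCF core genes was called in hac1hac5 and 1 was higher in med8med25. TPL-family co-repressor genes were lower in hac1hac5 in 4 of 5 cases, TPR1 at -0.66 and TPL at -0.54, whereas in med8med25 none was lower and TPR4 was higher by 0.41. Of 8 ARF genes of the chromosome 1 cluster, 1 passed the filter on low values.

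Genes that auxin induces, outside the Aux/IAA family, were lower for 8 of 10 in hac1hac5, and 5 were lower and 1 higher in med8med25. Of all genes, 21% were lower in hac1hac5, and 14.3% were lower and 12.3% higher in med8med25. ACS4, an ethylene synthesis gene, gave 295 and 229 normalized counts in Col-0, against 7.22 and 6.86 for hac1hac5 and 41.8 and 83.0 for med8med25, with log2 changes of -5.02 and -2.12. GH3.3, which encodes an enzyme that conjugates auxin, was at 2178 and 1906 in the wild type, 218 and 192 in the hac1hac5 libraries, and 285 and 526 in those of med8med25, with changes of -3.31 and -2.39. These values show the mutant libraries below Col-0 at both genes, with med8med25 above hac1hac5.

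Genes that respond to touch and handling moved with the genotypes too. All 5 were higher in both mutants, ZAT10 at 89.0 and 70.0 normalized counts in Col-0, with 8448 and 9800.1 for hac1hac5 and 1907 and 1789 for med8med25. Their part in the Aux/IAA changes was not tested. Of 5 floral organ genes 2 were lower in hac1hac5, and 2 were lower and 1 higher in med8med25. Of 5 seed genes 1 was higher in hac1hac5 and 1 lower in med8med25. For the touch, floral and seed lists too, the shares of all genes were 21% lower and 17.4% higher in hac1hac5. In med8med25 they were 14.3% and 12.3%.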

How the data were processed

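Single-end reads were 50 bases long. Per the submitters' processing notes, HISAT2, featureCounts and edgeR were used with build TAIR10. Versions, annotation and strand setting are not given in the sources used here. Deposited by the authors was a single table of normalized counts, a non-integer signal for each gene. All 195288 values matched whole reads, within a relative 1e-06, when a quantile adjustment to a common library was inverted. Those reads gave the depth and an added test only.

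The test was limma-trend (limma 3.58.1, R 4.3.3) on log2(value + 1), for the 23898 genes that reached 1 in 2 or more libraries. All 6 libraries shared the spread, with genotype as the only term (3 residual and 5.28 prior degrees of freedom). P-values were two-sided, adjusted by the Benjamini-Hochberg method over all genes, and called under 0.05. A log2 change on this scale understates that of weakly read genes. The fit was tested on simulated data. Levels per kilobase used merged RefSeq TAIR10.1 exons. All 44 IDs matched that table, and coordinates and upstream sequences come from it alone. Windows of 50 bases were unique throughout 43 members and to 99.6% in IAA13.

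Members, lists, classes and motifs were chosen with earlier results of these data known, and no list was tested. Per-library values were printed for members called with a log2 change of at least 1 against Col-0, for the activator ARFs and for the most abundant member of each class, and ARF18 was added after its values were seen. In all, 11 alternative settings were run, beside leaving out each of 6 libraries. Reads are not independent molecules, so depth covers counting error only.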

Additional observations from a re-analysis of the deposited data

How the results depend on the processing

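Of 198 counts of genes or members under other settings, 19 moved by more than 1.5 times, and of 108 counts without a single library, 31 did. No direction of a called member was reversed under any setting, where a change of sign of a member not called in either setting was not counted. Total scaling, and limma voom on the deposited values, which also scales by totals, moved the same counts because they shift the median of all genes. Lower genes in hac1hac5 went from 5010 to 2874 and 2853, lower genes in med8med25 from 3421 to 1989 and 2029, and higher genes in med8med25 from 2929 to 5258 and 5305. Under both, ARF genes in hac1hac5 became 3 higher and 1 lower, lower ARF genes in med8med25 became 4, and higher Aux/IAA genes in med8med25 became 1. With only the 2 genotypes compared in the fit, hac1hac5 had 2 higher and 6 lower ARF genes, and 1 Aux/IAA gene in place of 3 was lower in med8med25 than in hac1hac5, the cause of which was not tested. ARF17 in med8med25 was not called in that fit either (adjusted p = 0.0535).

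The replicate numbers did not pair the samples: deviations of libraries with the same number correlated at -0.018, -0.12 and -0.22. With the replicate number as a block, hac1hac5 had 20 lower Aux/IAA genes and 0 higher ARF genes, and med8med25 had 17 lower Aux/IAA genes and 6 lower ARF genes, since ARF9 in hac1hac5 and ARF17 in med8med25 lost their calls (adjusted p = 0.0678 and 0.0537). With the med8med25 numbers crossed, an alternative chosen after seeing the data, these were 21, 2, 18 and 7. Limma voom on the recovered reads, also chosen after seeing the data, moved no count by more than 1.5 times.

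Without single libraries, hac1hac5 had 2587 to 4826 higher and 2616 to 5841 lower genes, 1 to 2 higher and 17 to 21 lower Aux/IAA genes, and 0 to 2 higher and 1 to 6 lower ARF genes. For med8med25 these were 1129 to 3174 and 1430 to 3703 genes, 0 higher and 11 to 17 lower Aux/IAA genes, and 0 to 3 higher and 3 to 8 lower ARF genes. Between the mutants, 3584 to 4893 genes were higher and 3269 to 5065 lower, with 6 to 10 and 0 to 3 Aux/IAA genes and 1 to 3 and 3 to 4 ARF genes. Leaving out a library leaves a genotype with 1 sample, which is then assumed to vary like the others. Members under about 20 normalized counts (IAA15, IAA20, IAA32, IAA33) are limited by depth.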
